A study of Homo sapiens with 6 samples.

Results

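The genes described here encode 10 secreted signalling proteins: the CXC chemokines CXCL1, CXCL2, CXCL3, CXCL5 and CXCL8, the CC chemokines CCL2 and CCL20, and the IL-6 family cytokines IL6, IL11 and LIF. They were found by symbol, and each symbol matched a single row among the 61552 genes of the deposited table. The cells were SKOV3, an established human ovarian cancer line with amplified ERBB2. One group of 3 libraries came from cells that received 1 µM of fenbendazole, a benzimidazole anthelmintic that binds tubulin, over 48 h. The control group of 3 libraries came from cells that received the vehicle DMSO over the same time. Poly(A) RNA of whole cultures was sequenced, so fewer cells that make an RNA and less of it per cell cannot be told apart. All libraries came from a single cell line at a single dose and time, and the labels do not say that they were separate cultures. The p-values therefore refer to the spread among the libraries sequenced, and that spread may be technical. Libraries carry the numbers of their titles, DMSO 10, 11 and 12 and fenbendazole 7, 8 and 9.

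Chemokines are small secreted proteins that bind G protein-coupled receptors and direct the movement of leukocytes. CXCL1, CXCL2, CXCL3, CXCL5 and CXCL8 share a glutamate-leucine-arginine (ELR) motif before their first cysteines, signal through CXCR2 (CXCL8 also through CXCR1) and are known for drawing neutrophils and for promoting blood vessel growth. IL-6, IL-11 and LIF bind their own receptor subunits and then signal through the shared subunit gp130, encoded by IL6ST, to JAK kinases and STAT3. In epithelial and tumour cells, most of these genes are known to be switched on by NF-kB, AP-1 and C/EBP factors downstream of IL-1 and TNF, and many of their mRNAs are short-lived because of AU-rich elements. Both CXCL8 and IL-6 are known products of ovarian cancer cells.

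The start of each gene is where the inducing factors are known to bind, so the sequence there was searched in the 8 members with an entry in the RefSeq promoter table (build GRCh38.p14). CCL2 and LIF have no entry there. Below are the bases from 160 to 51 before the start for CXCL8, CXCL1 and IL6, the 3 members whose counts rose. They lie at chr4:73740409-73740518 (plus strand), chr4:73869233-73869342 (plus strand) and chr7:22727040-22727149 (plus strand). GENCODE release v29 places 13 bases of the CXCL8 stretch, 0 of the CXCL1 stretch and 3 of the IL6 stretch in an exon. Capitals mark matches to the NF-kB letters GGANTTTCC, the AP-1 letters TGANTCA and the C/EBP letters TTGCNNAA.
CXCL8: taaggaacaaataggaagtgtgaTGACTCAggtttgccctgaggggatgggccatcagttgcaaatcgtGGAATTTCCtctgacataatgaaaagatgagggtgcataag
CXCL1: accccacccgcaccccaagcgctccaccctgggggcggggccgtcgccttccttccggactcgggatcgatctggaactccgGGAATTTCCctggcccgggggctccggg
IL6: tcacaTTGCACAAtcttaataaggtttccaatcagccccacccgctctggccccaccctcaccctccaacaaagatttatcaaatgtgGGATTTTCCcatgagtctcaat

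In the CXCL8 stretch the first capitals are an AP-1 match, from -137 to -131 relative to the start, and the second an NF-kB match from -91 to -83. CXCL1 had an NF-kB match from -78 to -70. IL6 had a C/EBP match from -155 to -148 and an NF-kB match from -72 to -64. Over the 250 bases before the start, on both strands, NF-kB letters were found in 6 of the 8 members, against 1.45% of 35116 promoters of the same length. The 6 were CXCL1, CXCL2, CXCL3, CXCL5, CXCL8 and IL6. AP-1 letters were found in 2 of 8, CXCL8 and IL11, against 6.57% of promoters, and C/EBP letters in 2 of 8, CXCL2 and IL6, against 9.05%. No match overlapped another. Promoters of CXCL1 and CXCL3 were 81.4% identical over these bases, those of CXCL2 and CXCL3 73.3% and those of CXCL1 and CXCL2 68%. These 3 are thus alike and not independent cases. The identity of the CXCL8 promoter with those of the other CXC members was 40.5% to 45%. Most of these genes are known targets of NF-kB, so the share of members with a match is a description and not a test. A match describes letters and does not show that a factor was bound in these cells. Sites that depart from these letters were not counted, so a gene without a match may still hold a site.

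Of the 10 members, 3 rose with fenbendazole (CXCL8, CXCL1 and IL6) and 0 fell by edgeR's quasi-likelihood test at a Benjamini-Hochberg adjusted p of 0.05. Among all 17363 genes tested, 3.11% were higher and 0.921% lower. A further 5 members (CXCL2, CXCL3, CCL2, CCL20 and LIF) were tested and did not pass. The other two, CXCL5 and IL11, were too low to judge. Levels below are CPM (counts divided by library size), on edgeR's TMM scale, with no adjustment for gene length. Groups did not overlap, with every fenbendazole library above every control, for 7 of the 8 tested members. CXCL3 was the exception, and 17% of all tested genes showed that separation upwards. The log2 difference had a positive sign in all 8 tested members with a median of 1.21, while it was positive in 7817 of 17363 tested genes with a median of -0.06. These figures are a description and not a test, because the members were chosen with earlier results of these data known. In addition, edgeR's filter asked for about 10 counts (0.607 CPM) in 3 libraries. CCL2 reached that level in 0 DMSO and 3 fenbendazole libraries, so it had to be higher with fenbendazole. IL6 reached it in 1 DMSO and 3 fenbendazole libraries, so it would not have passed the filter on its DMSO libraries alone.

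**Figure D1:**
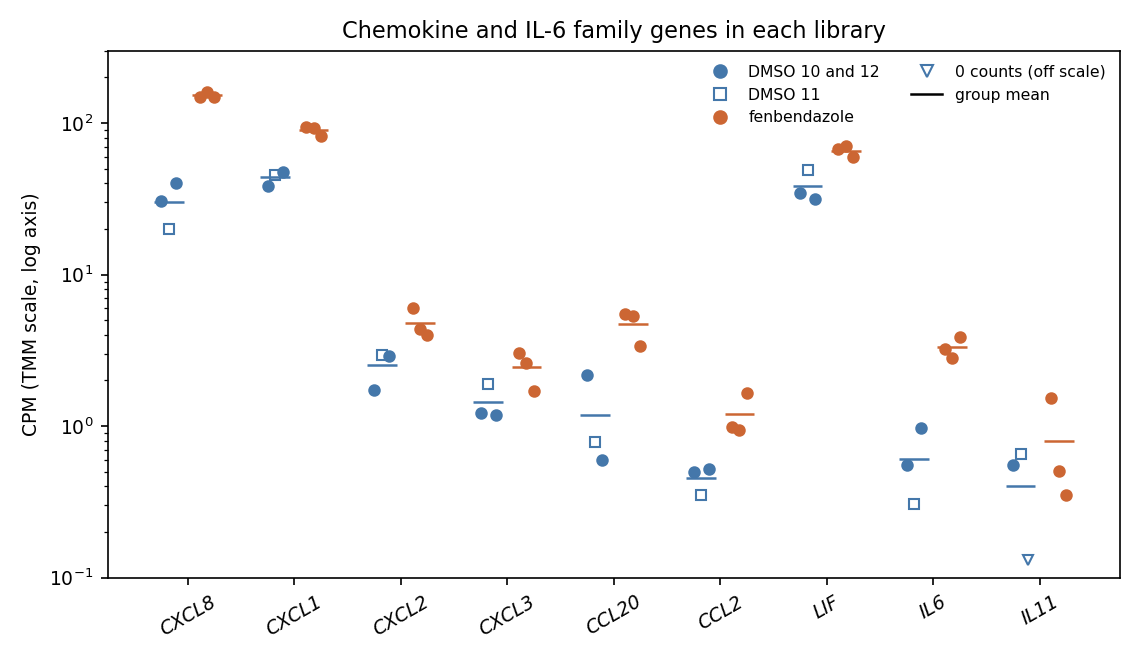
CPM (log axis) of each member in the 6 libraries. Points are single libraries, with DMSO 11 as an open square, and bars are group means. CXCL8 lies at 20.0 to 40.4 CPM under DMSO and at 148 to 161 CPM with fenbendazole, and CXCL3 and IL11 are the genes shown whose groups overlap. CXCL5, with 0 counts in 4 libraries, is not drawn.

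The libraries held between 13170775 (DMSO 12) and 22128930 (DMSO 11) counts. The smallest number taken as a level, 3 counts, stood for 0.132 to 0.223 CPM. The control DMSO 11 stood apart. Its counts differed from those of the other controls by 79.2 and 87.2 in chi-square per degree of freedom, against 8.47 between DMSO 10 and DMSO 12 and 4.86 to 6.94 among the fenbendazole libraries. Relative to the other controls its median gene level was -0.70 (log2) in the fifth of genes with the lowest GC content and 0.98 in the fifth with the highest. Markers of the line were present, with ERBB2 at 7806 to 15881 CPM in DMSO and 4224 to 4632 CPM with fenbendazole. ERBB2 fell (log2 difference -1.29, edgeR adjusted p = 0.0422), a call lost in 6 of 16 other settings. Of the 6 markers of the line listed, all were tested, 0 rose and 1 fell, against 0.921% of all tested genes. The log2 difference was positive in 1 of the 6, whose groups did not overlap and which passed in 4 of 16 other settings. Markers of other cell types were partly present. Of 8 leukocyte markers only CD68 passed the filter, CD3E had 0 counts in every library, and the pan-leukocyte gene PTPRC had 10 counts in all of DMSO and 14 with fenbendazole. CD14, a monocyte marker, had 3 and 19 counts. The summed level of the leukocyte list, nearly all of it CD68, was 12.5 to 19.4 CPM in DMSO and 15.1 to 17.8 CPM with fenbendazole. Of 6 fibroblast markers 5 passed the filter, with COL1A1 at 3010 and 1829 counts, LUM at 496 and 677 and DCN at 5 and 3, and their summed level was 52.3 to 90.0 against 57.4 to 60.4 CPM. Of 4 endothelial markers PECAM1 passed, at 552 and 560 counts, VWF had 6 and 9, and the summed level was 9.70 to 11.98 against 12.2 to 13.0 CPM. Whether the counts of these markers came from SKOV3 cells or from other cells was not tested.

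CXCL8, the interleukin-8 gene and a strong neutrophil attractant, was at 30.4, 20.0 and 40.4 CPM in DMSO 10, 11 and 12. With fenbendazole it was at 148, 161 and 149 CPM in libraries 7, 8 and 9. All fenbendazole libraries were thus far above all controls, and they varied less (SD of 6.78 CPM) than the controls did (SD of 10.2 CPM). The log2 difference was 2.34 ± 0.249 (SE), a 5.06-fold rise with a 95% confidence interval from 3.38 to 7.56 (edgeR adjusted p = 0.00357). CXCL8 is the first gene of the chromosome 4 cluster (GRCh38, 73740519 to 73743716, plus strand). Its transcript had the lowest GC content of the tested members (33.4%), and DMSO 11 was its lowest control. Without DMSO 11 the log2 difference was 2.12, and with offsets for GC content and transcript length it was 1.99.

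CXCL1, which encodes the neutrophil attractant also called GRO-alpha, was at 38.6, 45.7 and 47.8 CPM in DMSO 10, 11 and 12. In fenbendazole 7, 8 and 9 it was at 94.1, 92.7 and 81.6 CPM. The lowest fenbendazole library was well above the highest control, and DMSO 11 lay between the other controls. The log2 difference was 1.02 ± 0.142 (SE), a 2.03-fold rise with an interval from 1.62 to 2.56 (edgeR adjusted p = 0.00949). Its gene lies at 73869393 to 73871308 of chromosome 4, plus strand. The call depended on all 3 fenbendazole libraries: leaving out 7, 8 or 9 gave an adjusted p of 0.0831, 0.0774 or 0.059, with log2 differences of at least 0.94 in every fit that left out a library.

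CXCL2 and CXCL3, which encode the close relatives GRO-beta and GRO-gamma, were far lower. CXCL2 was at 1.73, 2.94 and 2.90 CPM in the controls and at 6.02, 4.402 and 4.004 CPM in the treated libraries. These groups did not overlap, but the gap between 2.94 and 4.004 CPM was smaller than the range within the fenbendazole group. The log2 difference was 0.93 ± 0.316 (SE), with an interval from 0.19 to 1.66, and did not pass (edgeR adjusted p = 0.153). CXCL3 was at 1.23, 1.89 and 1.19 CPM in the controls and at 3.05, 2.60 and 1.71 CPM with fenbendazole. Here fenbendazole 9 was below DMSO 11, so the groups overlapped, and the log2 difference of 0.75 ± 0.363 (SE) had an interval from -0.09 to 1.60 (edgeR adjusted p = 0.275). Counts behind CXCL3 were 16 to 46 per library, and behind CXCL2 31 to 91. DMSO 11 was the highest control for both. Without it CXCL2 passed (log2 difference 1.08, edgeR adjusted p = 0.0322) and CXCL3 did not (1.02, 0.0966).

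The coding sequences of CXCL1 and CXCL2 were 93.5% identical over 324 bases, those of CXCL1 and CXCL3 90.7%, and those of CXCL2 and CXCL3 94.4%, all from GENCODE v29. Reads from one of them could be assigned to another, and how the authors treated reads with several matches is not given in the sources used here. The values of CXCL2 and CXCL3 are therefore uncertain beside the much higher CXCL1. Per CXCL1 count there were 0.0448 to 0.0643 CXCL2 counts in DMSO and 0.0475 to 0.0640 with fenbendazole. The CXCL3 ratio was 0.0249 to 0.0413 in DMSO and 0.0209 to 0.0324 with fenbendazole. Both ratios overlapped between groups. The coding sequence of CXCL8, by contrast, was 51.7% to 54.2% identical to these genes. Its ratio to CXCL1 was 0.789, 0.438 and 0.846 counts in DMSO 10, 11 and 12 and 1.58, 1.73 and 1.83 in fenbendazole 7, 8 and 9, with no overlap.

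CXCL5, which encodes the epithelial neutrophil attractant ENA-78, was too low to judge. It had 0 counts in each DMSO library and 1, 0 and 1 in fenbendazole 7, 8 and 9, which is under the 3 counts taken as the limit in every library. At these depths an RNA below 0.132 to 0.223 CPM could not be told from none. No fold is given for it. The same limit applied to its neighbours CXCL6, PF4 and PPBP, which had 0 counts in all 6 libraries.

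**Figure D2:**
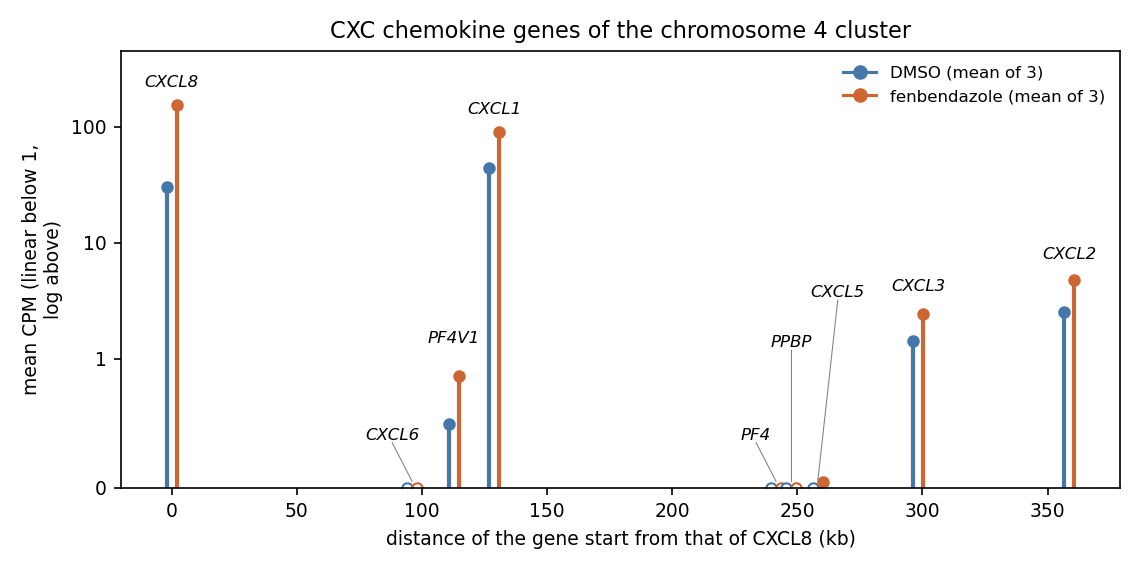
Mean CPM of the 9 CXC chemokine genes of the chromosome 4 cluster (linear below 1, log above) against the distance of each gene's start from that of CXCL8 in kb. Paired stems are the DMSO and fenbendazole means of 3 libraries, moved slightly apart, and open circles mark 0 counts. The 2 genes above 10 CPM, CXCL8 and CXCL1, lie 129 kb apart, with CXCL6 at 0 and PF4V1 below 1 between them.

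The cluster spans 358.7 kb between the start coordinates of CXCL8 and CXCL2, and genes with many counts lie among genes with none. CXCL8 and CXCL1, at its plus-strand end, carried nearly all the signal. Between them lay CXCL6 with 0 counts and PF4V1, a variant of platelet factor 4, with 31 counts in DMSO and 40 with fenbendazole (edgeR adjusted p = 0.544). PF4V1 passed with quality weights (log2 difference 1.54, adjusted p of 0.0496), where 14% of all genes were higher. CXCL3 (74036589 to 74038807) and CXCL2 (74097040 to 74099196), on the minus strand, were low in both groups. The summed level of the 5 ELR members was 70.6 to 92.2 CPM under DMSO and 236.6 to 260.3 CPM with fenbendazole. Of the 12 other CXC chemokines listed, 2 were tested and 0 rose or fell. Beside PF4V1 the tested gene was CXCL16, a transmembrane chemokine, at 5.80, 11.98 and 8.11 CPM in the controls and 6.29, 5.41 and 7.01 CPM with fenbendazole (edgeR adjusted p = 0.398). CXCL9, CXCL10 and CXCL11, the interferon-induced CXC genes, had 0 counts in every library.

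CCL20, which encodes the attractant of CCR6-bearing dendritic cells and lymphocytes, was at 2.17, 0.790 and 0.595 CPM in DMSO 10, 11 and 12. With fenbendazole it was at 5.49, 5.34 and 3.36 CPM. The groups did not overlap, and the control DMSO 10 was well above the other controls. The log2 difference was 1.98 ± 0.505 (SE), a 3.94-fold difference with a wide interval from 1.74 to 8.91, and it narrowly missed the threshold (edgeR adjusted p = 0.0807). Without DMSO 10 it passed, with a log2 difference of 2.74 and an adjusted p of 0.0346. It also passed without DMSO 11, with 1.73 and 0.0207. Counts were 8 to 39 in DMSO and 57 to 83 with fenbendazole. The gene lies at 227805739 to 227817564 of chromosome 2, plus strand, and its transcript is also poor in GC (35.5%).

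CCL2, which encodes the monocyte attractant MCP-1, was near the limit of detection in DMSO. Its counts were 9, 8 and 7 in DMSO 10, 11 and 12 and 15, 13 and 28 in fenbendazole 7, 8 and 9, or 0.502, 0.351 and 0.521 CPM against 0.993, 0.938 and 1.65 CPM. The groups did not overlap, and fenbendazole 9 was well above its group. The log2 difference of 1.39 ± 0.443 (SE) had an interval from 0.36 to 2.42 and did not pass (edgeR adjusted p = 0.131). It passed in none of the 14 other settings in which it was tested, where the lowest adjusted p was 0.0851. CCL2 lies at 34255274 to 34257208 of chromosome 17, plus strand.

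IL6, the founding cytokine of its family and an activator of STAT3, rose from a very low level. It was at 0.557, 0.307 and 0.967 CPM in DMSO 10, 11 and 12, from 10, 7 and 13 counts. In fenbendazole 7, 8 and 9 it was at 3.24, 2.81 and 3.89 CPM, from 49, 39 and 66 counts. Each fenbendazole library was above each control, and within DMSO the values differed by about as much as the mean itself. The log2 difference was 2.48 ± 0.445 (SE), a 5.60-fold rise with an interval from 2.72 to 11.5 (edgeR adjusted p = 0.025). This was the largest fold change of the tested members and among the least precise. Leaving out DMSO 10 gave an adjusted p of 0.1, and leaving out fenbendazole 7, 8 or 9 gave 0.12, 0.0943 or 0.134, while the log2 difference stayed between 2.15 and 2.95. On the log2 scale of deposited FPKM plus 1, which understates low genes, it was 1.15.

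The IL6 gene (chromosome 7, 22725884 to 22732002, plus strand) overlaps STEAP1B by 1730 bases and the antisense gene IL6-AS1 by 1737 bases, both on the opposite strand. Strand use in the counting is not stated, so their reads cannot be told apart with certainty. STEAP1B had 0 to 5 counts per library and IL6-AS1 0 to 4, less than IL6 had in any library. In the deposited FPKM values, which divide by transcript length, IL6 was at 0.157, 0.177 and 0.793 in DMSO. The third of these was several times the first, for 13 against 10 counts, so the FPKM values of IL6 did not follow its counts.

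LIF, a gp130 cytokine known for keeping mouse stem cells undifferentiated and for roles in implantation, was the highest of the 3 IL-6 family members. It was at 34.3, 49.3 and 31.4 CPM in DMSO 10, 11 and 12. With fenbendazole it was at 67.7, 70.1 and 59.7 CPM. Groups did not overlap, and DMSO 11 was nearest to the fenbendazole libraries. The log2 difference was 0.78 ± 0.197 (SE), a 1.72-fold difference with an interval from 1.25 to 2.36, and missed the threshold (edgeR adjusted p = 0.0797). LIF had the highest GC content of the tested members (56.9%). Without DMSO 11 the log2 difference was 1.01 with an adjusted p of 1.22e-05, and with GC and length offsets it was 1.01 with 1.73e-05. It lies at 30240453 to 30246759 of chromosome 22, minus strand, and overlaps LIF-AS1 (0 to 5 counts) and LIF-AS2 (11 to 30 counts, against 422 to 1123 for LIF), both on the other strand.

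IL11, a gp130 cytokine known for roles in platelet formation and fibrosis, was too low to judge. It had 10, 15 and 0 counts in DMSO 10, 11 and 12 and 23, 7 and 6 in fenbendazole 7, 8 and 9. One library in each group reached the 0.607 CPM that the filter asked for. The groups overlapped, at 0 to 0.658 CPM in the controls and 0.353 to 1.52 CPM with fenbendazole. When the filter was left out the log2 difference was 0.87 (edgeR adjusted p = 0.623). IL11 lies at 55364382 to 55370463 of chromosome 19, minus strand. Of the 6 other IL-6 family ligands listed, 2 were tested and 0 rose or fell: CLCF1 and CNTF had adjusted p-values of 0.596 and 0.73. CLCF1, at a log2 difference of 0.29, passed without DMSO 11 (0.68, adjusted p of 0.0212), with quality weights (0.69, 0.0117) and with GC and length offsets (0.55, 0.0437). OSM, which encodes oncostatin M, and IL27 and CTF1 had 0 counts in all libraries.

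**Figure D3:**
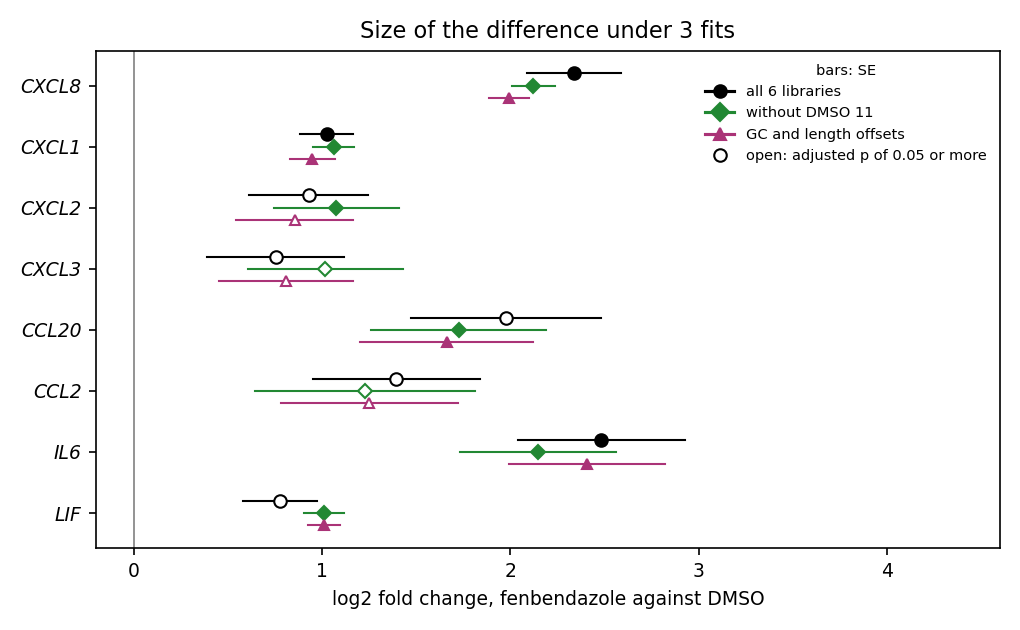
Log2 fold change of fenbendazole against DMSO for the 8 tested members under 3 fits, with bars for SE. Filled symbols passed an adjusted p of 0.05. All estimates lie above 0, from 0.75 for CXCL3 to 2.48 for IL6 in the fit of all 6 libraries, where CXCL2, CCL20 and LIF do not pass. These 3 pass without DMSO 11, and CCL20 and LIF also pass with the offsets.

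CXCL2, LIF and CCL20 thus passed once DMSO 11 was left out, and CCL20 also once DMSO 10 was. Without DMSO 11, 6 members rose, CXCL2, CCL20 and LIF besides CXCL1, CXCL8 and IL6, against a background of 13.1% of 17689 genes. With GC and length offsets 5 members rose (CCL20 and LIF besides the former 3), against 12.4% of genes. DMSO 11 was the lowest control for CXCL8, CCL2 and IL6 and the highest for CXCL2, CXCL3 and LIF. GC content rose in the order CXCL8 (33.4%), CCL20 (35.5%), CCL2 (42.6%), IL6 (44.5%), CXCL1 (45.6%), CXCL2 (46.0%), CXCL3 (50.5%) and LIF (56.9%). The part of GC content in these values was not tested. CXCL8 was past the threshold in all 16 other settings, CXCL1 in 13 of 16, IL6 in 11 of 16, CCL20 in 6, LIF in 4, CXCL2 in 2, and CXCL3 and CCL2 in 0. DESeq2 also gave 5 members, the same as the offsets (6.11% of genes), and limma-voom with quality weights, in which DMSO 11 had a weight of 0.074, gave 6 (14% of genes). With fenbendazole 7, 8 or 9 left out, 1 member rose (CXCL8) each time, against 0.763%, 0.787% and 0.793% of all genes.

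**Figure D4:**
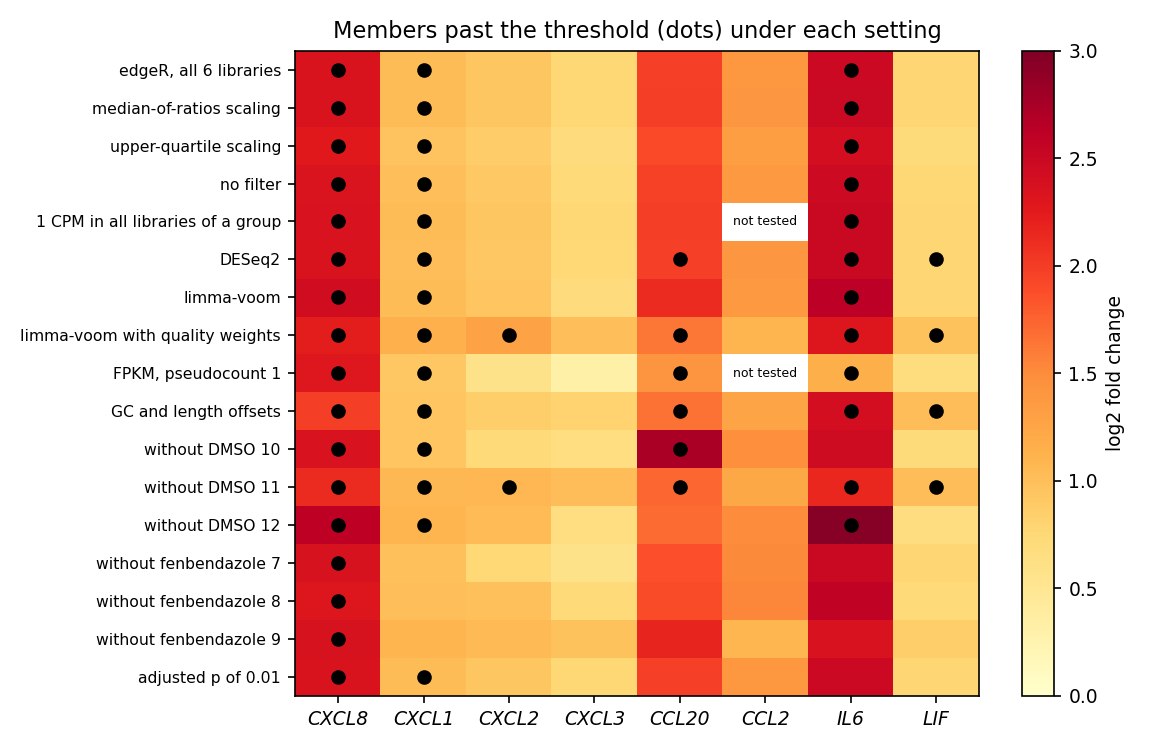
Log2 fold change (colour) of the 8 tested members in the fit as reported (top row) and in 16 other settings; dots mark genes past the threshold. The CXCL8 column has a dot in every row, the CXCL3 and CCL2 columns have none, and the rows for leaving out fenbendazole 7, 8 or 9 have 1 dot each.

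Levels of different genes can be compared only per length, for which the deposited FPKM values were used. In DMSO the order was CXCL1 at 34.6 ± 4.68 FPKM (SD, n = 3), CXCL8 at 17.1 ± 5.57, LIF at 8.99 ± 2.66, CXCL2 at 2.20, CCL20 at 1.19, CXCL3 at 1.10, IL6 at 0.376, CCL2 at 0.365, IL11 at 0.145 and CXCL5 at 0. Neighbours whose libraries overlapped were CXCL8 and LIF, CXCL2 and CCL20, CCL20 and CXCL3, IL6 and CCL2, and IL11 and CXCL5. With fenbendazole CXCL8 stood first at 84.8 ± 5.58 FPKM (SD, n = 3), above CXCL1 at 65.9 ± 6.15 and LIF at 14.6 ± 1.37. Then came CCL20 at 4.73, CXCL2 at 3.74, IL6 at 2.02, CXCL3 at 1.63, CCL2 at 1.22, IL11 at 0.289 and CXCL5 at 0.0143. Overlapping neighbours were CCL20 and CXCL2, IL6 and CXCL3, and CXCL3 and CCL2. CXCL8 and CXCL1 thus changed places at the top, without overlap in either group.

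The gene patterns most like that of CXCL8 were not those of other chemokines. Likeness was the root mean square difference of centred log2 CPM over the 6 libraries, among 15310 genes. The 5 nearest were DBF4 (0.0907), a regulatory subunit of the replication kinase CDC7, FBXO43 (0.105), an inhibitor of the anaphase-promoting complex, ZNF367 (0.119), SKA3 (0.126), a kinetochore protein, and DIAPH3 (0.135), an actin nucleator. Their log2 differences lay between 2.24 and 2.51, close to the 2.34 of CXCL8. IL6 was 18th (0.194), CCL20 407th, CCL2 431st, CXCL1 554th, CXCL2 964th, LIF 1434th and CXCL3 2047th. The measure depends on the size of the difference as well as on the libraries, and has no test.

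Receptors for these ligands were either too low to judge or did not pass the test. The chemokine receptors CXCR1, CXCR2, CCR2 and CCR6 and the decoy receptor ACKR1 had 0 to 5 counts in each group of 3 libraries and were too low to judge. Of the 9 receptor genes listed 4 were tested, and 0 rose or fell. IL6ST, the shared gp130 subunit, was at 529.6 ± 193 CPM under DMSO and 581.9 ± 37.4 CPM with fenbendazole (SD, n = 3 each; edgeR adjusted p = 0.795). IL6R was at 16.3, 23.2 and 20.8 CPM in the controls and 14.8, 14.1 and 11.9 CPM with fenbendazole. These groups did not overlap, but the log2 difference of -0.56 had an adjusted p of 0.17. IL11RA (-0.57, adjusted p of 0.284) and LIFR (0.21, adjusted p of 0.658) did not pass either.

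A list of gp130 signalling genes held JAK, STAT and regulator genes and also OSMR, which encodes a receptor subunit. It held no call either, with 10 of 11 tested, 0 higher and 0 lower, and a median log2 difference of -0.17. CISH, a STAT-induced feedback inhibitor, came nearest. It was at 32.3, 49.9 and 26.8 CPM under DMSO and 14.6, 18.04 and 17.9 CPM with fenbendazole, a log2 difference of -1.11 ± 0.255 (SE; edgeR adjusted p = 0.0599). CISH passed in 8 of 16 other settings, among them upper-quartile scaling (0.0453), no filter (0.0488), FPKM (0.0362), DESeq2 (0.0022) and the fits without DMSO 11 (0.00106) or DMSO 12 (0.045), with log2 differences of -0.80 to -1.32 in these fits. In the same order these fits called 1.33%, 0.381%, 1.29%, 4.28%, 9.23% and 0.553% of all genes lower. STAT3 itself differed by -0.22 (adjusted p of 0.374), and PTPN11 and PIAS3 had adjusted p-values of 0.201 and 0.362. PTPN11 passed in 3 other settings, with 0.00551 and a log2 difference of 0.26 without DMSO 11, where 13.1% of all genes were higher. SOCS3, the main feedback inhibitor of gp130 signalling, was at 3.68, 11.5 and 4.83 CPM in the controls and 4.17, 6.28 and 3.83 CPM with fenbendazole, with full overlap. SOCS1 was too low to judge, with 5, 34 and 10 counts in DMSO 10, 11 and 12 and 2, 0 and 0 in fenbendazole 7, 8 and 9. Most of its DMSO counts thus came from DMSO 11, and its transcript is rich in GC (69.1%).

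A list of 16 held cytokines known to induce these genes, receptors of such signals, and IL1RN, the IL-1 receptor antagonist gene. Of the 16, 11 were tested, 2 rose and 1 fell, and IL1RN was too low to judge. Of all tested genes 3.11% were higher and 0.921% lower. This list too was chosen with earlier results of these data known, so the counts describe it and do not test it. IL1A, an alarm cytokine, was at 18.7, 10.9 and 24.3 CPM in DMSO and at 53.5, 50.7 and 51.6 CPM with fenbendazole (log2 difference 1.54 ± 0.280, SE; edgeR adjusted p = 0.0267). IL1B, its secreted relative, was at 1.78, 2.37 and 1.79 CPM and then at 6.22, 8.37 and 6.54 CPM (1.82 ± 0.263; adjusted p = 0.0113). IL1R1, the receptor that both use, moved the other way, from 312, 220 and 290 CPM to 166, 161 and 168 CPM (-0.73 ± 0.153; adjusted p = 0.0445). In all 3 genes the groups did not overlap, a separation found upwards in 17% and downwards in 15.5% of all tested genes. TNF had a log2 difference of 1.93 (adjusted p of 0.0634) from 36 counts in DMSO and 115 with fenbendazole. With 0.446 and 0.521 CPM in DMSO 10 and 12, TNF met the filter's 0.607 CPM in 3 libraries only through fenbendazole. The 3 calls were lost when DMSO 10 or any 1 fenbendazole library was left out, with adjusted p-values of 0.0555 to 0.0774 for IL1B, 0.102 to 0.132 for IL1A and 0.133 to 0.215 for IL1R1. That of IL1R1 was also lost without DMSO 12 (0.091) and, with all 6 libraries, by limma-voom (0.0535).

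**Figure D5:**
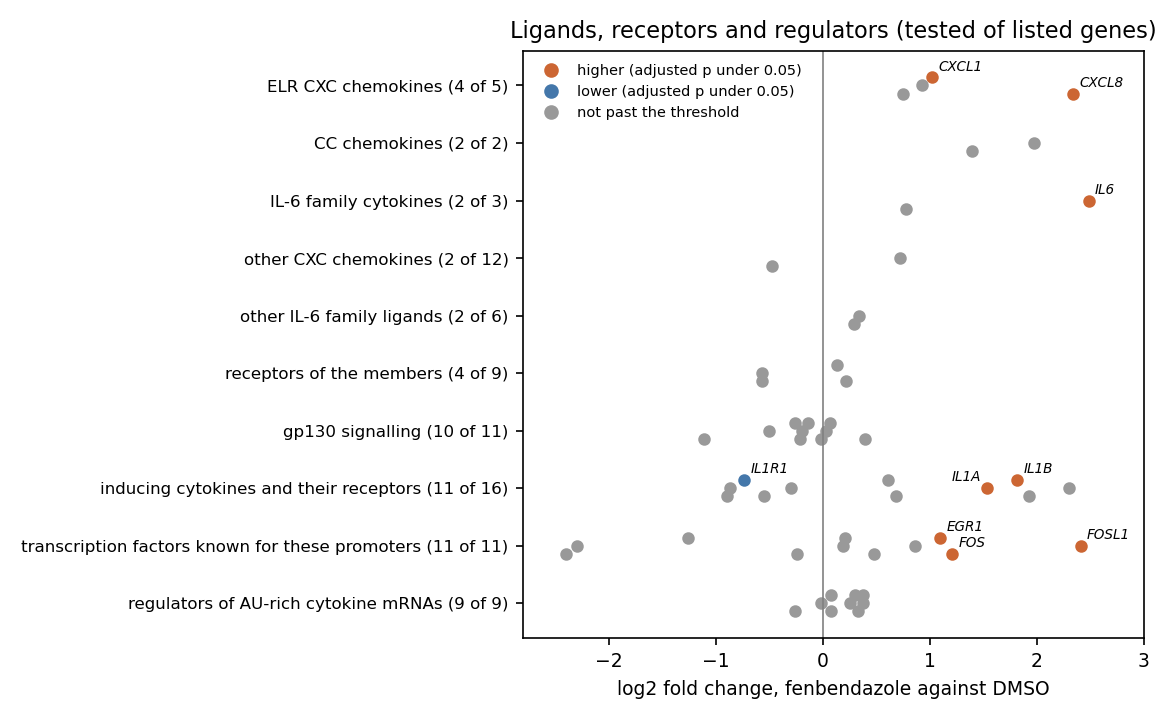
Log2 fold change of each tested gene in the member groups and in the lists of related ligands, receptors and regulators, with the number tested of the number listed. Orange points rose and blue points fell at an adjusted p of 0.05, and named points are those that passed. The receptor, gp130 and AU-rich lists hold no coloured point.

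Of 11 transcription factor genes known to act at these promoters all were tested, 3 rose and 0 fell. The shares over all tested genes were 3.11% higher and 0.921% lower. As the list was chosen with earlier results of these data known, its counts are a description. FOSL1, an AP-1 subunit, was at 8.02, 14.2 and 7.59 CPM in the controls and at 56.3, 51.7 and 51.3 CPM with fenbendazole (log2 difference 2.41 ± 0.265, SE; edgeR adjusted p = 0.00402). FOS, another subunit, rose by 1.21 ± 0.193 (adjusted p = 0.0157) and EGR1, a growth-induced zinc finger factor, by 1.10 ± 0.226 (adjusted p = 0.0424), both on the log2 scale. RELA and NFKB1, the NF-kB subunit genes listed, differed by -0.24 and 0.19 with adjusted p-values of 0.631 and 0.411. CEBPB and CEBPD, chosen for mention after their values were seen, showed how far DMSO 11 could lie from its group. CEBPB was at 14.4, 149 and 17.0 CPM in DMSO 10, 11 and 12 and at 12.7, 11.1 and 10.5 CPM with fenbendazole. CEBPD was at 15.2, 77.6 and 16.7 CPM and then at 8.28, 8.23 and 5.95 CPM. Neither passed (edgeR adjusted p of 0.179 and 0.101), but in both genes every fenbendazole library was below every control. The same held for BCL3, at 10.9, 34.2 and 9.07 CPM in DMSO and 7.02, 8.37 and 7.30 CPM with fenbendazole (edgeR adjusted p of 0.204). Of the 11 factors, groups did not overlap upwards in 6 and downwards in 3. Over all tested genes the shares were 17% and 15.5%. Without DMSO 10 or any 1 fenbendazole library FOS and EGR1 did not pass, with adjusted p-values of 0.0651 to 0.108 and 0.12 to 0.197, and EGR1 also not without DMSO 12 (0.0934) or on the FPKM values of all 6 libraries (0.0632). FOSL1 passed in each of these fits.

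AU-rich elements, in which the letters ATTTA recur in the 3′ untranslated region, are known to shorten the life of cytokine mRNAs. Over the longest coding transcript of each gene in GENCODE v29, IL6 held 6 in 429 bases, CXCL2 10 in 721, CXCL3 7 in 673, CXCL8 9 in 1252 and CXCL1 5 in 706. A density at least that of IL6 (13.99 per kb) was found in 0.575% of 19145 coding genes, and one at least that of CXCL2 in 0.585%. For CXCL8 and CXCL1 the shares were 3.53% and 3.66%. LIF, with 7 in 3204 bases, and CCL2, with 1 in 376, were not dense, with shares of 38.1% and 30.9%. The longer letters TTATTTATT occurred in 6 of 10 members (CXCL1, CXCL2, CXCL3, CXCL8, IL11 and LIF) against 8.13% of coding genes. IL6, CXCL5, CCL2 and CCL20 held 0, and IL11 held the most, with 6. Of 9 genes for proteins that act on such mRNAs, all were tested and 0 rose or fell. Their median log2 difference was 0.26, and the lowest adjusted p-values were 0.118 for HNRNPD, 0.214 for ELAVL1 and 0.252 for ZFP36L1. Without DMSO 11 these 3 genes passed, with log2 differences of 0.32, 0.39 and 0.34 and adjusted p-values of 0.0013, 0.00133 and 0.0011. They also passed with quality weights, and ZFP36L1 with the GC and length offsets (0.0117). In these fits 13.1%, 14% and 12.4% of all genes were higher. The letters describe the transcripts, and mRNA stability was not measured.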

How the data were processed

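Poly(A) RNA of SKOV3 cells was sequenced in 3 libraries with fenbendazole (1 µM, 48 h) and 3 with DMSO. Per the labels, TRIzol was used for extraction and an NEB Ultra kit for the libraries. The deposited table holds raw counts per gene, which the authors did not normalise, and FPKM values, per the file headers. CASAVA 1.8, HISAT2 2.1.0, StringTie 1.3.4b, edgeR and GRCh38 are named in the submitters' processing notes. Not given in the sources used here are the program that made the counts, how it treated strand and reads with several matches, and its annotation release.

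Counts were tested here with the quasi-likelihood F test of edgeR 4.0.16 in R 4.3.3 (robust dispersion, TMM scaling, filterByExpr) over 17363 genes of 61552, with Benjamini-Hochberg adjustment over all of them. SE and 95% intervals came from the F statistic. DESeq2 1.42.0, limma-voom and limma on log2 FPKM (limma 3.58.1, FPKM of at least 1, pseudocount 1), other scalings and filters, GC and length offsets (97.8% of tested genes), left-out libraries and an adjusted p of 0.01 were the alternatives. The rule named the members, the 3 tested genes with the smallest p of each other list, and the 5 genes most like CXCL8. Other genes given with values, such as IL6ST, STAT3, SOCS1, SOCS3, TNF, RELA and NFKB1, were chosen after their values were seen. The fit was tested on simulated data. Members and gene lists were chosen with earlier results of these data known, and 1 listed gene is not reported here. No pair of replicates agreed within sampling noise. Figures used matplotlib 3.10.9 in Python 3.11.15, and alignments Biopython 1.88.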

Additional observations from a re-analysis of the deposited data

How the results depend on the processing

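In every setting run, 0 members fell, and all tested members kept a positive log2 difference. DESeq2 gave 5 members higher, limma-voom with quality weights 6 and GC and length offsets 5. Of all genes DESeq2 gave 998 higher and 699 lower, quality weights 2434 and 2153, the offsets 2160 and 1483, and an adjusted p of 0.01 gave 193 and 17, against 540 and 160. Leaving out each library in turn gave 1 to 6 members higher, 139 to 2313 genes higher and 8 to 1633 lower. The highest counts came without DMSO 11 and the lowest without a fenbendazole library, and fewer samples also lower what can pass. The cause of the other moves was not tested.

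Some genes that had not passed changed sign. CD68 (-0.0013 with all libraries) was 0.0028 with median-of-ratios scaling, 0.0066 with the filter of 1 CPM, 0.0021 with limma-voom, 0.025 with quality weights, 0.17 with the offsets and -0.16 to 0.14 with a library left out. With quality weights CNTF was -0.10, LIFR -0.022 and COL1A1 0.037, and with the offsets COL1A1 was 0.093. With a library left out CNTF ran from -0.021 to 1.11, LIFR from -0.023 to 0.39 and COL1A1 from -0.59 to 0.11. PECAM1 was -0.028 on FPKM.

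No paired analysis was possible because DMSO and fenbendazole libraries have different numbers. With 7 to 13 IL6 counts and 7 to 9 CCL2 counts in DMSO, depth limits the precision of both.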

Other observations

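Several other genes of the inducing list lay near the threshold, and are named here after their values were seen. TLR4, the lipopolysaccharide receptor, had 11 counts in all of DMSO and 49 with fenbendazole (log2 difference 2.30, edgeR adjusted p = 0.066). IL18, an IL-1 family cytokine, was at 43.1, 35.4 and 51.8 CPM in DMSO 10, 11 and 12 and at 64.7, 66.8 and 67.5 CPM with fenbendazole (0.61, adjusted p = 0.0922). IL1RAP, the partner of the IL-1 receptor, was at 34.6, 24.4 and 37.6 CPM and then at 54.5, 49.3 and 50.8 CPM (0.68, adjusted p = 0.0988). TNFRSF1A, the main TNF receptor, was at 123, 189 and 113 CPM and then at 75.9, 84.6 and 72.7 CPM (-0.87, adjusted p = 0.068). In none of these 4 genes did the groups overlap, a separation found upwards in 17% and downwards in 15.5% of all tested genes. TLR4 was at 0.0878 to 0.334 CPM in DMSO, under the 0.607 CPM of the filter. It met the filter only through the fenbendazole libraries, so its separation followed from the filter. JUN, an AP-1 subunit, was at 42.0, 71.3 and 32.5 CPM in DMSO and at 92.0, 87.2 and 86.9 CPM with fenbendazole (0.87, adjusted p = 0.131).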
